A study of Mus musculus with 2 samples.

Results

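The cells described here were 250 mesothelial cells of mouse gonadal white adipose tissue (gWAT) that had been sorted as positive for a reporter of p16. They were chosen by their own UMI counts in the Tom+ droplet library. A cell was taken if it had more than 1000 and fewer than 7000 detected genes, under 8% of its UMIs from mitochondrially encoded genes and at least 10 UMIs summed over Msln, Upk3b, Krt19, Lrrn4 and Upk1b. A UMI (unique molecular identifier) stands for 1 captured RNA molecule. The 250 cells were 7.09% (6.27 to 7.99) of the 3524 Tom+ cells within the thresholds on genes and mitochondrial UMIs. The same gate took 1887 of 6717 Tom- cells, or 28.1% (27.0 to 29.2), and both libraries together held 10241 cells within the thresholds. These are shares of sorted libraries and not of the tissue. Ranges in parentheses are exact 95% intervals for counting error alone.

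Both libraries came from 18-month-old male mice of the genotype p16-CreERT2/R26-LSL-tdTomato, which had received daily intraperitoneal tamoxifen and were killed afterwards. CD31- CD45- cells were sorted by tdTomato fluorescence into Tom+ and Tom- cells, so the groups shared genotype, age and treatment and differed in the sort. Cre recombinase driven by the p16 gene unlocks the reporter during tamoxifen dosing, and the mark then stays. It therefore records past activity of the p16 gene, in whichever cell type this occurred. Whether animals were pooled is not given in the sources used here. With 1 library per condition no test was possible, cells of 1 library are not replicates, and the sort and the preparation of a library cannot be told apart. The whole tables summed to 61119807 UMIs over 5566 Tom+ barcodes and to 96872394 UMIs over 11838 Tom- barcodes. The 250 Tom+ cells held 5322983 UMIs, with a median of 18601.5 per cell (lowest 5145, highest 52182). The 1887 Tom- cells held 32355904 UMIs, with a median of 14753.

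Barcodes were shared between the libraries, and the 250 cells were affected more than the rest. Of all barcodes, 2224 were listed in both tables. Among the 250 cells, 100 (40%) were, against 14.4% of all Tom+ cells within the thresholds. For 99 of the 100, the Tom- entry was too small to pass the thresholds and held at most 3.50% of the UMIs of the Tom+ entry. The median over the 100 was 2.30%, or 681.5 UMIs. Over 1397 genes, each of the 100 Tom+ profiles matched the Tom- entry of its own barcode better than any other Tom- entry of the 100. The exception in size was 1 barcode with 5517 UMIs in the Tom+ and 20214 UMIs in the Tom- table, which passed the thresholds in both. Cells listed in both tables were deeper, with a median of 29790.5 UMIs against 14418 for the 150 listed once. Of the 1887 Tom- mesothelial cells, 207 were also listed in both tables, with a median of 1.85% of their UMIs in the Tom+ table. Values without all barcodes listed in both tables, which leave out cells on both sides, are therefore given beside several results below.

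The mesothelium is the thin sheet of flat, epithelium-like cells that lines the body cavities and covers the organs in them, including the gonadal fat depots. It combines keratins and cell junctions with features of mesenchyme, secretes a lubricating film and takes part in clotting control, host defence and repair after injury. p16Ink4a is an inhibitor of the kinases that start the cell cycle, and cells that accumulate it are commonly classed as senescent. It is 1 product of Cdkn2a, a gene that also encodes p19Arf from a separate first exon.

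In the Tom+ library few cells lay near the limit of the gate. Of the other Tom+ cells, 2951 had no UMI of the 5 gate genes, 290 had 1 and 18 had 2. The nearest cells outside were 2 Tom+ cells with 8 UMIs, none had 9 to 12, and the nearest cells inside had 13 (1 cell) and 17 (2 cells). The median inside was 81.5 UMIs and the highest 429. The Tom- library had no such gap, with 5 cells at 9 UMIs, just outside, 2 cells at 10, just inside, and 8, 3 and 13 cells at 11, 12 and 13.

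Markers that the gate did not use were present at a summed level far above that of the other Tom+ cells. Levels are given in CPM, the UMIs of a gene per 1000000 UMIs of the summed cells. Of 20 other mesothelial markers, 19 were detected and Calb2 was at 0. Their sum was 15580 CPM in the Tom+ and 15793 CPM in the Tom- mesothelial cells, against 480 CPM in the other Tom+ cells. Slpi, a secreted protease inhibitor, was the most abundant of them, with 7487 CPM (7414 to 7561) in Tom+ against 7225 CPM (7196 to 7254) in Tom- mesothelial cells. Wt1, the transcription factor of mesothelium and gonadal ridge, was at 478 CPM (459 to 497) against 513 CPM (506 to 521), but it was also found in 68.4% of the other Tom+ cells, at 170 CPM. Gpm6a, a membrane glycoprotein, was at 1016 CPM and 980 CPM, and at 3.26 CPM in the other Tom+ cells. Muc16, a membrane mucin, was at 231 CPM and 219 CPM, and Bnc1, a zinc finger factor of epithelia, at 88.5 CPM and 83.4 CPM. The gate genes themselves summed to 4844 CPM and 4796 CPM, which the rule fixed in part. Other markers were further apart, with Krt18 at 240 CPM in Tom+ against 346 CPM in Tom- mesothelial cells, Clu at 1713 CPM and 2068 CPM, Sulf1 at 246 CPM and 194 CPM, and Podxl at 80.8 CPM and 63.9 CPM. Slpi itself was at 5149 CPM and 7140 CPM without the barcodes listed in both tables.

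Of the lists for other cell types, that for adipocyte progenitor cells (APCs) had the highest sum. Tom+ and Tom- mesothelial cells had 960 CPM and 1039 CPM of it, against 4936 CPM in the other Tom+ cells, and 98.8% of the 250 cells had 3 or more of its UMIs. Its most abundant member was Dpp4, at 278 CPM, which was at 60.8 CPM in the other Tom+ cells. Mfap5 was at 186 CPM, Fbn1 at 170 CPM and Icam1 at 154 CPM, against 734, 856 and 188 CPM in the other Tom+ cells. Pdgfra was at 41.9 CPM and Dpt at 59.4 CPM, against 344 CPM and 1324 CPM. Of the endothelial list, Cdh5 was at 0 and Kdr gave 119 CPM of the sum of 135 CPM. The list for other epithelia summed to 226 CPM, of which Spint2 gave 218 CPM, with Krt5, Cldn4 and Elf3 at 0. Mural markers summed to 21.8 CPM, Schwann cell markers to 2.07 CPM with Sox10 at 0, adipocyte markers to 0.939 CPM and erythroid markers to 0.188 CPM. The more abundant lists that differed most between the libraries were the immune markers, with 383 CPM in Tom+ against 19.6 CPM in Tom- mesothelial cells, and the immunoglobulin genes, with 669 CPM against 320 CPM.

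The reporter RNA was far more abundant in the Tom+ mesothelial cells than in any other group. tdTomato was at 780 CPM (757 to 804) in the Tom+ against 8.25 CPM (7.29 to 9.30) in the Tom- mesothelial cells, a log2 ratio of 6.56 (6.38 to 6.75). The other Tom+ cells had 211 CPM (207 to 215). At least 1 tdTomato UMI was found in 79.2% (73.6 to 84.1) of the 250 cells, in 28.7% (27.1 to 30.3) of the other Tom+ cells and in 11.4% (10.0 to 13.0) of the Tom- mesothelial cells. The last share is the level measured in the same way in the Tom- sort, and free tdTomato RNA in the Tom+ droplets was not measured. When each cell was thinned to 9012 UMIs these shares were 70.3% (64.1 to 76.0), 21.5% (20 to 23) and 6.89% (5.73 to 8.20). The order of the groups was the same at equal depth. Thinning left out 11 of the 250 cells, 450 other Tom+ cells and 203 Tom- mesothelial cells.

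A limit of 5 tdTomato UMIs was passed by almost no Tom- cell. Cells at or above it were 57.6% (51.2 to 63.8) of the Tom+ mesothelial cells and 10.1% (9.07 to 11.2) of the other Tom+ cells. In the Tom- library they were 1 of 1887 mesothelial cells (0.0530%, 0.00134 to 0.295) and 0 of 4830 other cells, a count that allows a share of up to 0.0621% of the latter by a limit of 3 cells and of up to 0.0763% by the exact interval. The mesothelial cells made up 7.09% of the Tom+ cells but 30.4% (144 of 474) of the Tom+ cells with 5 or more tdTomato UMIs. The 250 cells thus fell into 144 reporter-high cells (5 UMIs or more), 54 reporter-middle cells (1 to 4 UMIs) and 52 reporter-zero cells. The highest cell had 126 tdTomato UMIs and the median was 7.5. Reporter-zero cells were not the shallow ones: their median depth was 24467 UMIs, against 20521 in reporter-middle and 16641 in reporter-high cells. Of the barcodes listed in both tables, 45 were reporter-high, 26 reporter-middle and 29 reporter-zero cells. Among the 150 cells listed once, 66.0% were reporter-high.

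**Figure D1:**
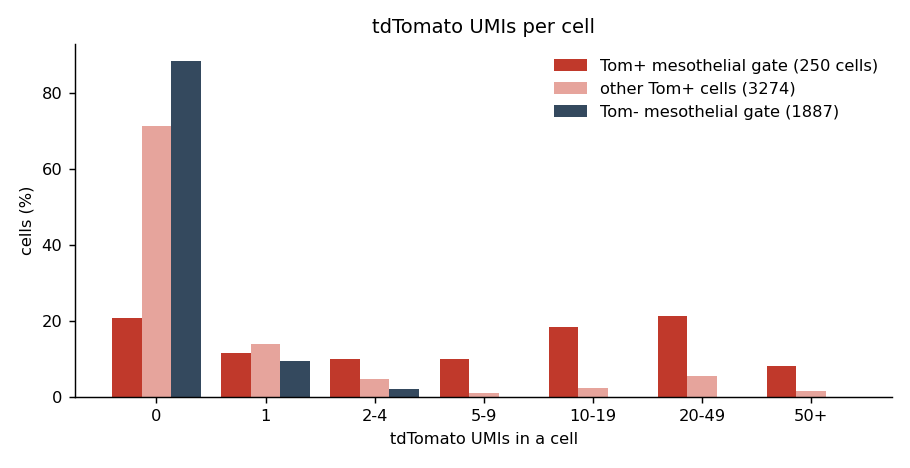
Share of cells (%) by the number of tdTomato UMIs in a cell, for Tom+ mesothelial, other Tom+ and Tom- mesothelial cells, 1 library per sort. The Tom+ mesothelial cells spread over all bins, with 21.2% at 20 to 49 UMIs, whereas 88.6% of the Tom- mesothelial cells had none.

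The gene behind the reporter was itself sparse. Cdkn2a (ENSMUSG00000044303) lies on the minus strand of chromosome 4 of GRCm38, from 89274471 to 89294653. It was at 12.4 CPM (9.59 to 15.8) in the Tom+ mesothelial cells, from 66 UMIs in 25 cells, and at 8.47 CPM (7.5 to 9.53) in the Tom- mesothelial cells. By reporter class it was at 18.9 CPM (14.2 to 24.8) in reporter-high, 4.94 CPM (1.81 to 10.7) in reporter-middle and 5.35 CPM (2.15 to 11) in reporter-zero cells. The reporter-high level rested on few cells: 3 of the 18 cells with a Cdkn2a UMI held 28 of the 53 UMIs. Without these 3 cells it was 8.93 CPM. In the Tom- mesothelial cells the top 3 of 162 such cells held 28 of 274 UMIs, and 7.60 CPM was left without them. The step took a far larger part of the UMIs from the reporter-high cells, so 8.93 and 7.60 CPM are not a like comparison. The same step left 0.823 CPM in reporter-middle and 0 in reporter-zero cells. Only 4 and 3 cells of these classes had a Cdkn2a UMI, so the step itself fixed such low values and they are no comparison. After thinning, a Cdkn2a UMI was found in 7.30% (3.56 to 13.0) of reporter-high and 5.52% (4.48 to 6.72) of Tom- mesothelial cells. These intervals overlapped, whereas those of the summed levels in the same 2 groups did not. Cdkn2b, the neighbouring gene for the inhibitor p15, was at 10.7 CPM (8.11 to 13.9) against 13.3 CPM (12.1 to 14.6).

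These UMIs also cannot be assigned to p16Ink4a as such. The qPCR primers of the study for p16Ink4a are shown because they lie in the part of the RNA that separates the transcripts:
p16Ink4a forward: ccgctgcagacagactgg
p16Ink4a reverse: ccatcatcatcacCTGAATCG
The forward primer matched bases 89282087 to 89282104 of chromosome 4 (GRCm38, minus strand), within exon 1 of the p16Ink4a transcript Cdkn2a-201. The reverse primer is complementary to the junction of exons 1 and 2: its capitals are the 8 bases in exon 1 (89281986 to 89281993) and its lower-case letters are the 13 bases in exon 2 (89276973 to 89276985). Neither primer had a full match in Cdkn2a-202, the p19Arf transcript, whose first exon lies further upstream (89294334 to 89294653). A 3′ library counts RNA near its 3′ end, where both transcripts share most of exon 3 (89274541 to 89274774). That of Cdkn2a-201 runs on to 89274471. The deposited counts are per gene and so give the sum of both transcripts.

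Most of the genes that were more than 2-fold higher in Tom+ than in Tom- mesothelial cells were genes of macrophages, and most of their UMIs lay in a few cells. Of the 6076 genes that averaged 20 CPM or more over both sums, 21 were more than 2-fold higher (0.346% of genes tested) and 10 more than 2-fold lower (0.165%) in the Tom+ cells. Among the 21 were the complement genes C1qa, C1qb and C1qc, the lysozyme gene Lyz2, the chemokine genes Ccl8, Ccl6 and Pf4, the receptor genes Cd209f, Mrc1, Folr2, Csf1r and Cd36, and Cd68, Tyrobp, Fcer1g and Wfdc17. Lyz2 was at 275 CPM (261 to 290) in Tom+ against 10.8 CPM (9.65 to 11.9) in Tom- mesothelial cells. C1qa was at 128 CPM and 5.28 CPM, and Ccl8 at 116 CPM and 1.21 CPM. Ptprc, the gene of CD45, against which the cells had been sorted, was at 6.39 CPM and 0.495 CPM.

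At least 3 UMIs of the immune list (Ptprc, Cd52, Tyrobp, Lyz2, Fcer1g, Cd79a, Cd3e and Coro1a) were found in 18 of the 250 cells, or 7.20% (4.32 to 11.1), and in 18 of 1887 Tom- mesothelial cells, or 0.954% (0.566 to 1.5). Of genes outside this list, the 18 Tom+ cells held 99.1% of the UMIs of C1qa, 98.1% of those of Ccl8 and 99.2% of those of Cd209f, but 75% of those of Cd68 and 72.2% of those of Csf1r. They also held 97.3% of the Lyz2 UMIs, which their choice fixed in part. The 5 richest cells held 80.9% of the immune-list UMIs. Wt1, which the gate did not use, was at 381 CPM in the 18 cells and 487 CPM in the rest, and the 18 cells were deeper, with a median of 26749 against 18198 UMIs. Of the 18 barcodes, 10 were listed in both tables. No doublet caller was run, and the source of these UMIs was not tested.

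The immune UMIs were not spread evenly over the reporter classes. Cells with 3 or more were 4 of 144 reporter-high (2.78%, 0.762 to 6.96), 8 of 54 reporter-middle (14.8%, 6.62 to 27.1) and 6 of 52 reporter-zero cells (11.5%, 4.35 to 23.4). With 10 or more there were 0 of 144, 7 of 54 and 6 of 52. The list summed to 20.7 CPM in reporter-high cells, close to the 19.6 CPM of the Tom- mesothelial cells, and to 974 CPM and 610 CPM in reporter-middle and reporter-zero cells. The classes also differed in depth, as given above, and these are shares of cells of 1 library, so the difference was not tested.

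**Figure D2:**
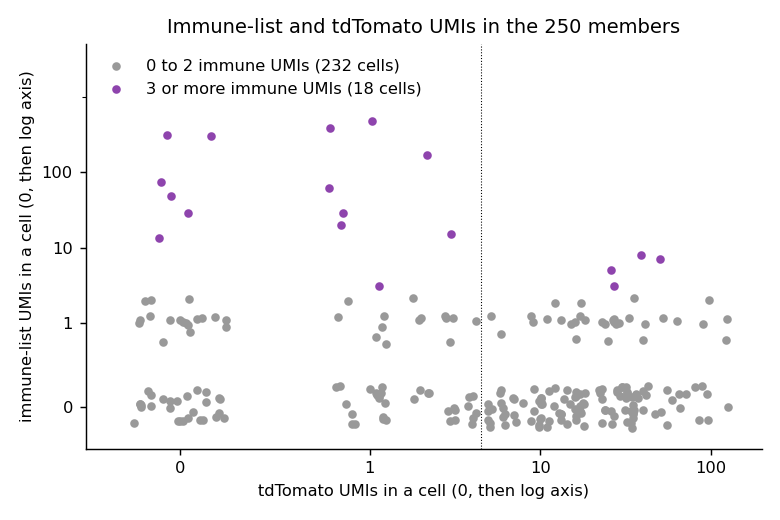
Each point is 1 of the 250 Tom+ mesothelial cells, by its tdTomato UMIs and its UMIs summed over the immune list (both axes 0, then log, with small random shifts). The dotted line separates cells with 5 or more tdTomato UMIs, and the 13 cells with 10 or more immune UMIs all lie to its left.

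With the cells of 3 or more immune UMIs left out on both sides, a setting added after seeing the data, 4 of 6045 genes were more than 2-fold higher in the Tom+ cells (0.0662%) and 9 were lower (0.149%). The 4 were tdTomato, Igkc, Ighm and AY036118. Igkc, the immunoglobulin kappa constant gene of plasma and B cells, was at 490 CPM (471 to 509) in Tom+ against 147 CPM (142 to 151) in Tom- mesothelial cells. It was found in 100% of the 250 cells, and it was at 45430 CPM in the other Tom+ against 10725 CPM in the other Tom- cells. The libraries thus differed in this RNA outside the mesothelial cells as well, and the part of free RNA was not tested. Ighm, the heavy chain gene of IgM, was at 152 CPM and 55.1 CPM. Iglc1, a lambda chain gene, went the other way, with 1.69 CPM and 89.5 CPM, but 1 Tom- cell held 2763 of its 2897 Tom- UMIs.

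**Figure D3:**
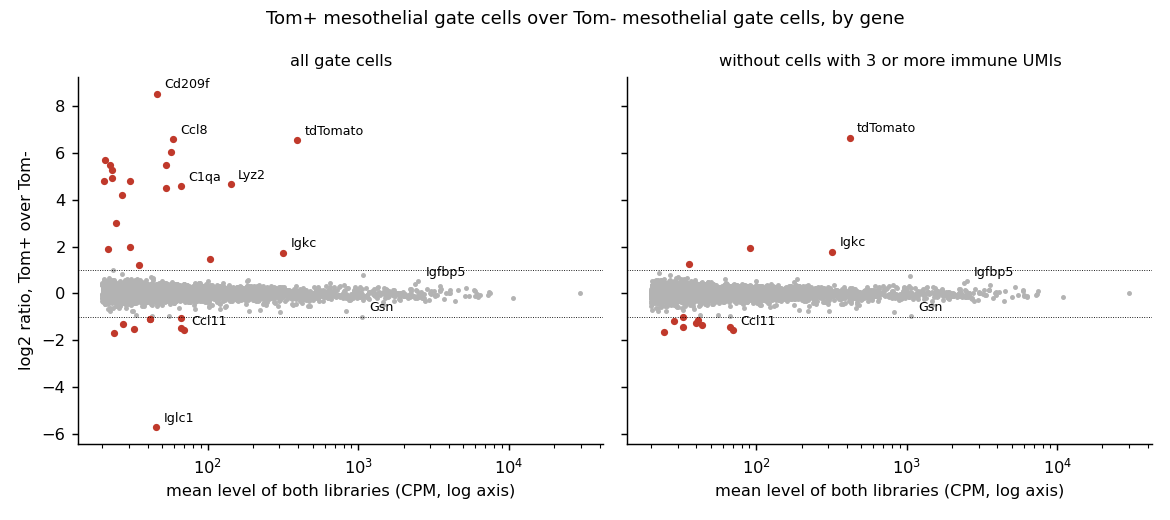
Log2 ratio of Tom+ over Tom- mesothelial cells against the mean level (CPM, log axis) for each gene averaging 20 CPM or more, with all cells (left) and without cells of 3 or more immune UMIs (right). Dotted lines mark 2-fold and red points are past it; the macrophage genes at the upper left, such as Lyz2 and C1qa, are absent on the right, whereas tdTomato and Igkc remain.

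Apart from these genes the Tom+ and Tom- mesothelial cells differed little. The median log2 ratio of the 6076 genes was 0.03, and 90% of the genes lay between -0.26 and 0.32. The genes that were higher in the Tom+ cells included secreted and surface proteins. Igfbp5 (ENSMUSG00000026185, chromosome 1, bases 72857932 to 72874884), which binds insulin-like growth factors, was at 2948 CPM (2902 to 2994) in Tom+ against 2066 CPM (2050 to 2081) in Tom- mesothelial cells. It was higher in each reporter class, at 2905, 2526 and 3431 CPM in reporter-high, reporter-middle and reporter-zero cells, and its log2 ratio of 0.51 lay between 0.37 and 0.73 in all alternatives tried. Smpd3, a neutral sphingomyelinase, was at 217 CPM (204 to 229) against 148 CPM (143 to 152), with 214, 252 and 190 CPM in the 3 classes. Kdr, a receptor for vascular endothelial growth factor, was at 119 CPM (110 to 129) against 81.5 CPM (78.4 to 84.7), with 112, 115 and 139 CPM in the 3 classes. In these 3 genes each reporter class lay above the Tom- cells. Without the barcodes listed in both tables the log2 ratio of Smpd3 was 0.41 in place of 0.55 and that of Kdr 0.22 in place of 0.55, and Kdr was then at 49.8 CPM in reporter-zero cells, below the 73.5 CPM of the Tom- cells.

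Other genes of this group were less uniform. Hbegf, a ligand of the epidermal growth factor receptor, was at 220 CPM (207 to 233) in Tom+ against 149 CPM (144 to 153) in Tom- mesothelial cells, but at 171 CPM in reporter-high and 300 CPM in reporter-zero cells, where 1 cell alone held 123 UMIs. Krt14, a keratin of stratified epithelia, was at 67.8 CPM (61.0 to 75.2) against 48.0 CPM (45.7 to 50.5). A Krt14 UMI was found in 14.8% of the 250 cells, and its log2 ratio of 0.50 turned to -0.94 without the barcodes listed in both tables. Zeb2, a repressor of epithelial genes, was at 102 CPM and 74.0 CPM, and Gclc, which catalyses the first step of glutathione synthesis, at 147 CPM and 108 CPM. The log2 ratio of Zeb2 was 0.36 in place of 0.47 without the barcodes listed in both tables. Without cells with immune UMIs Zeb2 was no longer among the 12 largest ratios, of which the lowest was 0.39.

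Of the 10 genes that were more than 2-fold lower in the Tom+ mesothelial cells, 8 had a higher level outside than inside the gate in the Tom- library, against 33.2% of all genes tested, a count made after their values were seen. Ccl11, the chemokine eotaxin (ENSMUSG00000020676, chromosome 11, bases 82057823 to 82062955), was at 34.9 CPM (30.1 to 40.3) in Tom+ against 105 CPM (101 to 108) in Tom- mesothelial cells. In the cells outside the gate it was at 896 CPM in the Tom+ and 1620 CPM in the Tom- library. Sult1e1, an estrogen sulfotransferase, was at 35.3 CPM and 97.7 CPM, and outside the gate at 884 CPM and 1494 CPM. Gsn, the actin-severing protein gelsolin, was at 706 CPM (683 to 729) against 1416 CPM (1403 to 1429), and outside the gate at 14696 CPM and 20213 CPM. For these 3 genes the Tom- library was also the higher outside the gate. Lum, a proteoglycan of collagen matrix, was at 44.0 CPM and 89.7 CPM inside the gate but at 1134 CPM and 1013 CPM outside it. Gpx3, a secreted glutathione peroxidase, was at 140 CPM and 239 CPM, and outside the gate at 1267 CPM and 1545 CPM.

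Cells with 3 or more UMIs summed over Pdgfra, Dpt, Lum, Pi16 and Ptprc were 30.4% of the Tom+ and 25% of the Tom- mesothelial cells. Without them 1 gene was more than 2-fold lower in the Tom+ cells in place of 10, a fall that the choice of cells fixed in part, since Lum is 1 of the 10, and the log2 ratio of Gsn was -0.34 in place of -1.0. That of Ccl11 was -1.25 in place of -1.58. Without the barcodes listed in both tables, 12 genes were more than 2-fold higher and 19 lower, and the ratios of Gsn and Ccl11 were -1.24 and -2.52. The shares of genes tested were not computed for the counts of this paragraph.

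Of the genes of inflammation, some lay below the Tom- level and others, such as Ccl8 above, did not, but 98.1% of the Ccl8 UMIs lay in the 18 cells with immune UMIs. Cxcl1, a chemokine for neutrophils (ENSMUSG00000029380, chromosome 5, bases 90891241 to 90893115), was at 611 CPM (590 to 632) in Tom+ against 1038 CPM (1026 to 1049) in Tom- mesothelial cells. It was at 760, 416 and 474 CPM in reporter-high, reporter-middle and reporter-zero cells, all below the Tom- level. Il6 was at 26.5 CPM (22.3 to 31.2) against 56.8 CPM (54.3 to 59.5). Tnfaip6, which binds hyaluronan, was at 94.1 CPM and 149 CPM. Ptx3, a soluble pattern receptor, was at 11.5 CPM (8.77 to 14.7) against 36.7 CPM (34.7 to 38.9). These 4 genes were higher outside the gate in both libraries and highest there in the Tom- library, with Cxcl1 at 1931 CPM in the other Tom+ and 4993 CPM in the other Tom- cells. They were named after their values were seen. Cxcl2, a further chemokine for neutrophils, had a log2 ratio of 0.72, with 158 of its 279 Tom+ UMIs in 1 cell. The 18 cells with immune UMIs held 60.6% of the 279. In the rest of the 250 cells Cxcl2 was at 22.7 CPM, against 31.8 CPM in all Tom- mesothelial cells. Of the NF-kappaB list, 4 of 12 genes were higher in Tom+ cells (median -0.01, against 0.03 for all genes).

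Gene lists were compared by the number of members above 0 on the log2 scale, against 55.8% of all genes tested. With median-of-ratios scaling, which shifted the log2 ratios by -0.05, this share of all genes was 42.9%, and in the comparison of reporter classes below it was 54.3% in place of 48.9%. All 11 genes tested of the fibrinolysis and coagulation list were lower in Tom+ cells, with a median log2 ratio of -0.10. Tissue factor (F3), which starts clotting, was at 329 CPM (314 to 345) in Tom+ against 445 CPM (438 to 453) in Tom- mesothelial cells. Plaur, the receptor of urokinase, was at 264 CPM and 332 CPM, and Tfpi, the inhibitor of tissue factor, at 31.9 CPM (27.3 to 37.1) against 40.5 CPM (38.4 to 42.8). Other members were closer, such as the plasminogen activator Plat with 224 CPM and 243 CPM. Genes of both arms of the system, clotting and its dissolution, lay on the same side, several of them by less than the counting intervals. The log2 ratio of F3 was -0.19 in place of -0.44, and that of Plaur -0.04 in place of -0.33, without the barcodes listed in both tables.

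Of the chemokines and cytokines, 3 of 13 were higher in Tom+ cells, with a median of -0.20. Of the immediate early genes, 5 of 28 were higher, with a median of -0.15. Within that list Fos was at 5699 CPM and 6221 CPM, Myc at 364 CPM and 482 CPM, and Nr4a2 at 202 CPM and 288 CPM, but Egr1 was higher in Tom+ cells, at 3744 CPM and 3307 CPM. The glycolysis and hypoxia list had 4 of 17 higher (median -0.14), with Gapdh at 739 CPM and 848 CPM. The list for the mesothelial to mesenchymal transition had 5 of 17 (median -0.13), and the interstitial matrix genes had 11 of 31 (median -0.08). With median-of-ratios scaling the counts of these 5 lists were 2, 4, 2, 4 and 5, against 42.9% of all genes. Their medians and that of the fibrinolysis list stayed below 0 in all alternatives tried, but without the cells with UMIs of other cell types the medians of the transition and matrix lists were within 0.01 of 0. The median of the chemokines and cytokines was then -0.04 in place of -0.20, and it was -0.40 without the cells with immune UMIs.

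In the opposite direction, 12 of 15 Wnt and R-spondin genes were higher in Tom+ cells, with a median log2 ratio of 0.13, which was 0.06 without the barcodes listed in both tables. Wnt9a was at 30.6 CPM (26.1 to 35.7) in Tom+ against 23.2 CPM (21.6 to 24.9) in Tom- mesothelial cells, and Wnt4 at 74.0 CPM (66.9 to 81.7) against 63.8 CPM (61.1 to 66.6). Rspo1, an enhancer of Wnt signals and a mesothelial marker, was at 701 CPM and 677 CPM, whereas the secreted inhibitor Sfrp1 was at 23.5 CPM (19.5 to 28.0) against 39.3 CPM (37.2 to 41.5). Of 8 retinoid genes 7 were higher, with a median of 0.12. Aldh1a1, which makes retinoic acid, was at 688 CPM (666 to 711) against 613 CPM (605 to 622), but Aldh1a2, which catalyses the same step, was at 130 CPM and 156 CPM. With that scaling 11 of 15 and 5 of 8 were higher, and for reporter-zero cells alone the medians of both lists were near 0 (0.01 and -0.01). The lists for cell cycle inhibitors and p53 (8 of 19 higher, median -0.02) and for secreted factors of senescent cells (9 of 20 higher, median -0.03) showed no common direction, and each held genes on both sides, such as Igfbp5 and Il6 in the second.

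**Figure D4:**
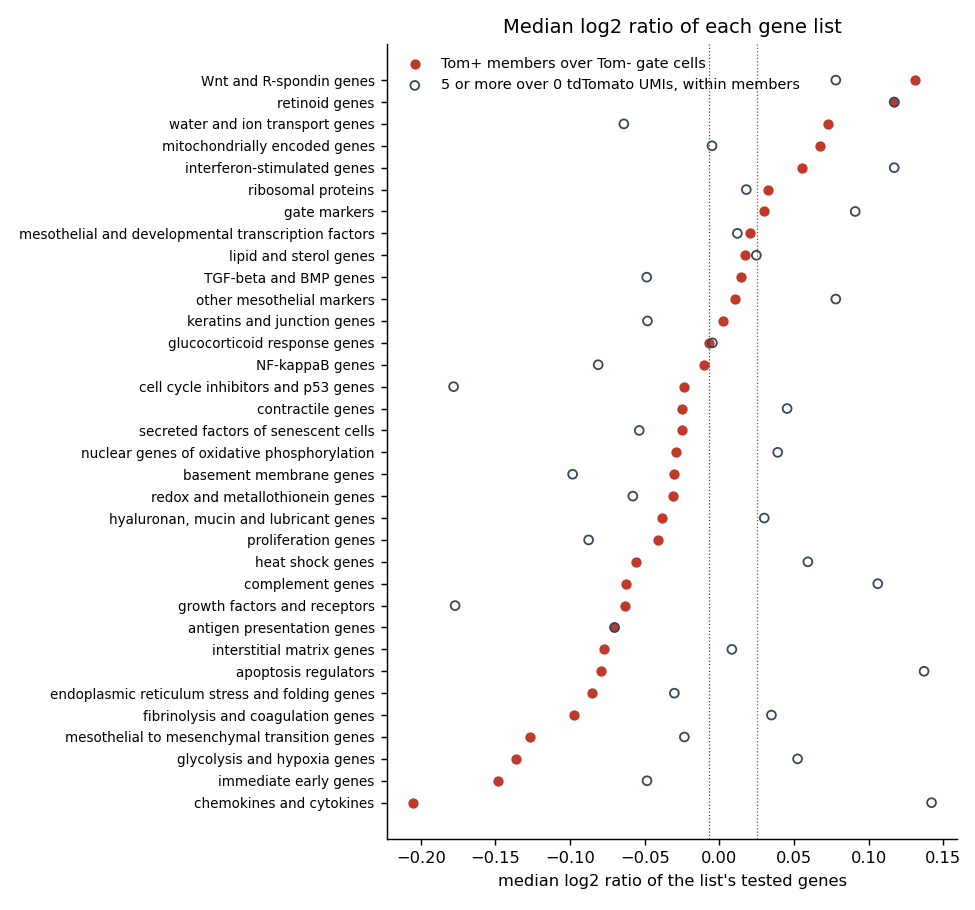
Median log2 ratio of the tested genes of each of 34 gene lists, for Tom+ over Tom- mesothelial cells (filled) and for reporter-high over reporter-zero cells within the Tom+ library (open). Dotted lines mark the medians of all genes in the same comparisons. Chemokines and cytokines have the lowest filled point (-0.20), and cell cycle inhibitors and p53 genes the lowest open point (-0.18).

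Within the Tom+ library, the 144 reporter-high cells were set against the 52 reporter-zero cells, which shared the sort and the preparation. Of 6115 genes averaging 20 CPM or more, 15 were more than 2-fold higher (0.245%) and 55 more than 2-fold lower (0.899%) in reporter-high cells, tdTomato left out. Most of the largest differences among the 55 were again the macrophage genes of the few cells described above. Without cells of 3 or more immune UMIs, 21 of 6079 genes were higher (0.345%) and 22 lower (0.362%). Without the barcodes listed in both tables, 99 reporter-high and 23 reporter-zero cells were left, and 117 genes were higher and 217 lower, counts for which the share of genes tested was not computed. With so few cells single genes can rest on 1 of them.

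The p53 target Cdkn1a was lower in the reporter-high cells. Cdkn1a (ENSMUSG00000023067, chromosome 17, bases 29090976 to 29100727, plus strand) encodes the cyclin-dependent kinase inhibitor p21, a further gene used to mark senescent cells. It was at 269 CPM (250 to 289) in reporter-high, 331 CPM (299 to 365) in reporter-middle and 548 CPM (509 to 590) in reporter-zero cells, and at 287 CPM (281 to 292) in Tom- mesothelial cells. The reporter-high cells were close to the Tom- cells, and the reporter-zero cells stood above both. The log2 ratio of reporter-high over reporter-zero cells was -1.03 (-1.18 to -0.88). It was -0.54 without the barcodes listed in both tables and -1.49 without cells with UMIs of other cell types. In the reporter-zero cells 1 cell held 158 of the 717 UMIs. After thinning, a Cdkn1a UMI was found in 55.5% (46.7 to 64.0) of reporter-high and 76.0% (61.8 to 86.9) of reporter-zero cells and in 57.5% (55.1 to 59.9) of Tom- mesothelial cells.

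Of the 20 tested genes of the list for cell cycle inhibitors and p53, 8 were higher in reporter-high than in reporter-zero cells, a count near the 48.9% of all genes, and the median log2 ratio was -0.18. Cdkn1c, the inhibitor p57, was at 38.2 CPM (31.3 to 46.2), 53.5 CPM and 78.0 CPM (63.6 to 94.7) in reporter-high, reporter-middle and reporter-zero cells and at 63.1 CPM in Tom- cells. Zmat3, an RNA-binding p53 target, was at 13.9, 15.6 and 29.8 CPM, and at 14.7 CPM in Tom- cells. Eda2r, a receptor of the tumour necrosis factor family and a p53 target, was at 11.4, 16.5 and 24.5 CPM, and at 10.0 CPM in Tom- cells, below the limit of 20 CPM, and 1 reporter-high cell held 8 of its 32 UMIs. Other members were close to even, such as Trp53 itself with 88.6 and 81.8 CPM and Btg2 with 1541 and 1538 CPM. The median of the list stayed below 0 in all alternatives tried, and 3 of the 20, Cdkn1a, Cdkn1c and Zmat3, were more than 2-fold lower, against 0.899% of all genes.

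Several further genes were lower in the reporter-high cells. Their direction was not that of all related genes: of the keratins and junction genes 12 of 25 were higher (median -0.05). Krt19, a gate gene whose level the rule fixed in part, was at 752 CPM in reporter-high and 707 CPM in reporter-zero cells. Fxyd3, a regulator of the sodium pump, was at 145 CPM (131 to 160), 204 CPM (179 to 231) against 335 CPM (304 to 368) in the 3 classes and at 269 CPM (263 to 275) in Tom- cells. Krt18 was at 215, 207 and 322 CPM, and at 346 CPM in Tom- cells. Tagln, an actin-binding protein, was at 81.1 CPM (70.9 to 92.3), 93.0 CPM (76.6 to 112) against 177 CPM (155 to 202), and at 158 CPM in Tom- cells, and 1 reporter-zero cell held 78 of the 232 UMIs. In these 3 genes the reporter-high cells lay below the Tom- cells, and the reporter-zero cells nearer to them. Gpc3, a glypican, was at 275, 328 and 523 CPM, and Hbegf at 171, 244 and 300 CPM, the last of which rested in part on the single cell given above. The acute phase genes Saa3 (1509, 1681 and 2483 CPM) and Lcn2 (146, 171 and 271 CPM) showed the same order of classes. Without the barcodes listed in both tables the log2 ratio of Krt18 was -0.10 in place of -0.58, and that of Lcn2 turned from -0.89 to 0.24. The order was also the same in the class II antigen presentation gene H2-Aa (74.3, 96.3 and 181 CPM) but not in H2-Eb1 (67.5, 63.4 and 150 CPM), which was lowest in reporter-middle cells. Macrophages express these last genes as well. The 18 cells with immune UMIs held 20.5% of the H2-Aa UMIs of the 250 cells, and without such cells H2-Aa was at 76.0 CPM and 124 CPM and H2-Eb1 at 69.3 CPM and 101 CPM in reporter-high and reporter-zero cells.

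Other genes were higher in the reporter-high cells. Il33, an alarmin held in the nucleus, was at 229 CPM (212 to 247), 207 CPM (182 to 234) against 138 CPM (118 to 159) in the 3 classes and at 211 CPM in Tom- cells. Its log2 ratio of 0.73 lay between 0.61 and 0.88 in all alternatives tried. Igfbp3, a further binding protein for insulin-like growth factors, was at 45.0 CPM (37.5 to 53.6), 24.7 CPM and 8.41 CPM (4.20 to 15.0), and at 15.8 CPM (14.5 to 17.2) in Tom- cells. Its UMIs were found in 18.1% of the reporter-high cells, and 1 of them held 33 of the 126. Fn1, fibronectin, was at 331, 279 and 213 CPM, and Wnt4 at 85.4, 70.0 and 53.5 CPM. Birc2, an inhibitor of apoptosis, was at 102, 97.1 and 62.7 CPM, with 97.3 CPM in Tom- cells.

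Other ratios rested on single cells or on the choice of cells. Fabp4, a fatty acid carrier of adipocytes and endothelium, was at 122 CPM and 34.4 CPM in reporter-high and reporter-zero cells, but 1 cell held 126 of the 343 UMIs. In the reporter-zero cells 1 cell held 158 of 200 UMIs of Cxcl2 and 1 held 177 of 206 UMIs of Lpl, the lipoprotein lipase. Adm (86.1 and 40.5 CPM) and Plpp3 (206 and 97.1 CPM) turned their direction without the barcodes listed in both tables, and 1 reporter-high cell held 131 of the 577 Plpp3 UMIs. Of the chemokine list 8 of 13 were higher in reporter-high cells (median 0.14), of the interferon-stimulated genes 15 of 20 (median 0.12), and of the apoptosis regulators 9 of 13 (median 0.14). Without the barcodes listed in both tables the medians of these 3 lists were -0.22, -0.23 and -0.10. Of the growth factors and receptors 4 of 20 were higher (median -0.18), with a median below 0 in all alternatives tried.

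**Figure D5:**
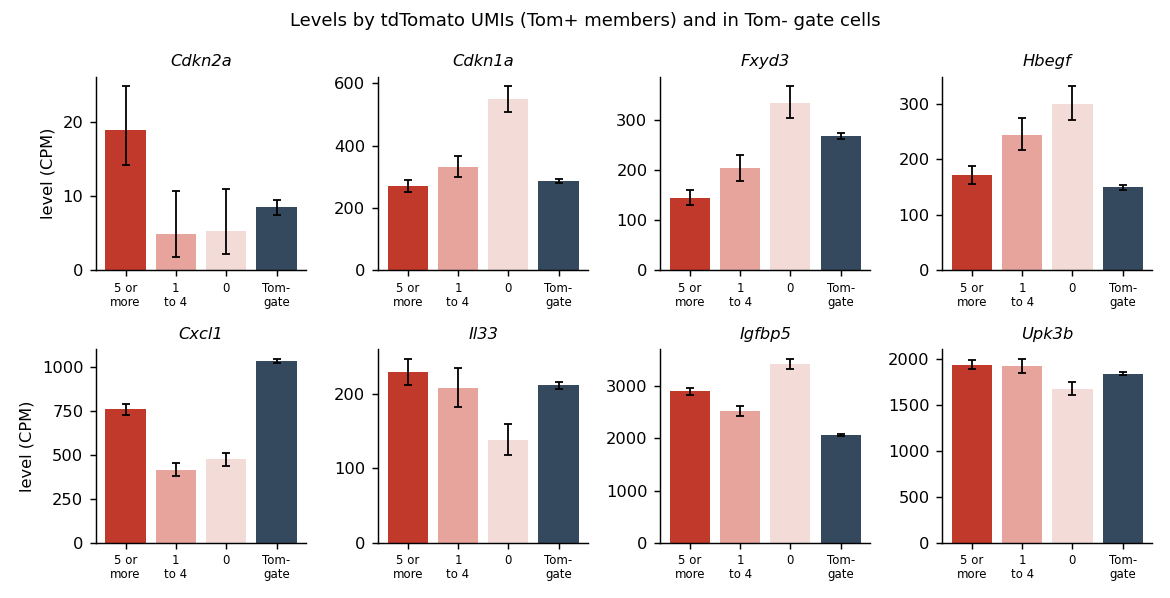
Level (CPM) of 8 genes in reporter-high (5 or more tdTomato UMIs), reporter-middle (1 to 4) and reporter-zero (0) Tom+ mesothelial cells and in Tom- mesothelial cells, summed over the cells of a class, with exact Poisson 95% intervals for counting error. Cdkn1a, Fxyd3 and Hbegf have their highest bar in reporter-zero cells, and Il33 has its lowest there. The reporter-zero bar of Hbegf rests in part on 1 cell, which also had immune UMIs. Upk3b is a gate gene, so its level, which differs little, was fixed in part by the rule.

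The reporter-high and the reporter-zero cells were each set against the same Tom- mesothelial cells, so the pairs of values share these controls. For reporter-high cells 5 of 6049 genes were more than 2-fold higher (0.0827%) and 10 lower (0.165%). The 5 were Igkc, Ighm, Igfbp3, AY036118 and tdTomato, the last fixed by the choice of these cells. For reporter-zero cells 48 of 6094 genes were higher (0.788%) and 21 lower (0.345%). Among the 48 were macrophage genes such as Cd209f, Ccl8, C1qa and Lyz2. Of the immune-list UMIs of the reporter-zero cells, 95.7% lay in 5 cells. Penk, the precursor of the enkephalins, was at 17.1 CPM in reporter-high, 6.88 CPM in reporter-zero and 47.9 CPM in Tom- mesothelial cells, and at 668 CPM in the other Tom- cells.

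The 250 cells also varied among themselves. After thinning to equal depth, the ratio of variance to mean over cells had a median of 1.18 among 2766 genes averaging 0.5 UMI or more, where counting alone gives about 1. It was highest for Slpi (103), followed by the acute phase gene Saa3 (80.2), Lyz2 (56.5), Gsn (45.7) and the nuclear RNA Malat1 (38.6). Saa3 was at 0 in 43.9% of the thinned cells and reached 215 UMIs in 1 of them. Lyz2, Cd209f, Ccl8 and C1qa were among the first 12 genes through the few cells with immune UMIs, and 85.6% of the Cd209f UMIs lay in 5 cells. The remaining ones were Igfbp5 and the chemokine genes Cxcl10, Ccl2 and Ccl7. Cxcl10 was at 0 in 66.9% and Ccl2 in 54.4% of the cells. Of the 12 genes, 7 were also among the first 12 in the Tom- mesothelial cells, where Saa3 (145), Slpi (110) and Gsn (82.2) led.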

How the data were processed

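The data were 10x Genomics 3′ (v3.1) libraries of CD31- CD45- gWAT cells, 1 of Tom+ and 1 of Tom- cells. The authors deposited UMI counts per gene and barcode, made with Cell Ranger 3.0.2 on mm10 and not normalized, over 31054 features including tdTomato. Of the feature IDs, 30934 were found in the GENCODE vM21 annotation (GRCm38).

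The quality thresholds were those of the study's methods. No doublet caller was run. UMIs were summed over the cells of a class and scaled to CPM, and genes averaging 20 CPM or more over both sums were compared, a difference past 2-fold being a description without a test. Intervals were exact Poisson for levels, Clopper-Pearson for shares and exact conditional for ratios, and cover counting error only. Thinning drew 9012 UMIs from each cell, the 10th percentile of depth over the mesothelial cells of both libraries. Genes were named if they were among the 12 largest or smallest ratios (mean of at least 50 CPM, at least 60 UMIs, same sign with median-of-ratios scaling and with every cell weighted equally; mitochondrial, ribosomal, immunoglobulin, haemoglobin and sex-linked marker genes left out), the 2 most abundant or most different of a list, or the 12 most variable; other genes past 2-fold or of a list were chosen after their values were seen. Some genes that met these rules are not reported here. The gate, the reporter classes, the 34 gene lists and the 9 cell type lists were chosen with earlier results of these data known. The alternatives were other gates, mitochondrial limits, scalings, weights, CPM limits and tdTomato limits, thinning, and leaving out barcodes listed in both tables or cells with UMIs of other cell types. The ratios, computed with scipy 1.17.1, numpy 2.4.6 and pandas 2.3.3 in Python 3.11.15, were checked on simulated data, and plots were drawn with matplotlib 3.10.9.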

Additional observations from a re-analysis of the deposited data

How the results depend on the processing

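No paired analysis was possible because each condition is 1 library, and no replicate could be left out. Shares and ratios of the reporter kept their direction in all alternatives except reporter-zero cells alone, which were chosen for having no tdTomato UMI. The share of reporter-high cells was 66.0% without the barcodes listed in both tables (150 cells), 44.8% after thinning (46.0% in the draw used for the shares in the text), and 64.4% and 47.6% with limits of 3 and 10 tdTomato UMIs. The log2 ratio of tdTomato was 7.15 without those barcodes, 6.86 without cells with UMIs of other cell types, 6.89 with every cell weighted equally and 6.88 after thinning. It was 7.45 for reporter-high cells alone, a value that their choice by tdTomato UMIs fixed in part. The numbers of genes past 2-fold were less stable. They are given as counts, since the share of genes tested was not computed for most of these settings. For Tom+ over Tom- cells (21 higher, 10 lower) they were 12 and 19 without the shared barcodes, 8 and 1 without cells with UMIs of other types, 69 and 34 at a limit of 5 CPM, 9 and 4 at 50 CPM, 5 and 10 for reporter-high and 48 and 21 for reporter-zero cells alone, and 4 and 9 without cells with immune UMIs, the alternative chosen after seeing the data. The lower genes were 6 with a gate of 5 UMIs, 4 with equal weights and 5 after thinning. For reporter-high over reporter-zero cells (15 higher, 55 lower) they were 117 and 217 without the shared barcodes, 75 and 122 after thinning, 171 and 308 at 5 CPM, 3 and 20 at 50 CPM, 34 and 75 without cells with UMIs of other types, and 21 and 22 without cells with immune UMIs. Limits on CPM change the genes tested, and leaving out or thinning cells lowers the counts; the causes of the other moves were not tested.

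Among the genes named by rule, directions turned for 13 values of genes past 2-fold. In reporter-high against Tom- cells, C1qa was at -0.43 and C1qb at -1.35. In reporter-high over reporter-zero cells, Adm was at -0.27 without the shared barcodes and -0.12 without cells with UMIs of other types, Plpp3 at -0.69 and -0.18, Lpl at 0.07 and Cxcl2 at 3.20 without the latter, and Cd209f at 0.36, Ccl6 at 0.36, Pf4 at 1.58, Cd36 at 1.23 and Lpl at 0.63 without cells with immune UMIs. Of the other genes so checked, Krt14 (-0.94), H2-Aa (0.24), H2-Eb1 (0.34), Slpi (-0.47), Saa3 (-0.25) and Birc2 (0.19) turned in the first comparison without the shared barcodes, and Ccl11 (from 1.97 to -0.59), Tnfaip6 (-1.05), Gsn (-0.49), Kdr (0.73), Lcn2 (0.24), Gclc (-0.37), Smpd3 (-0.25), Slpi (0.31) and Lum (0.07) in the second. Of the medians of the 34 lists, 421 of 442 values in the first and 396 of 442 in the second comparison moved by less than 0.1, but 62 and 76 of these values had another sign than the reported median, in 20 lists each.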

Other observations

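Some barcodes had at least 10 UMIs of the 5 gate genes but lay outside the thresholds and were not among the 250 cells. In the Tom+ library 24 of them had 7000 or more genes, with a median of 57864 UMIs, and 9 of these had 5 or more tdTomato UMIs. In the Tom- library there were 25 such barcodes, with a median of 51793 UMIs, and none had 5 tdTomato UMIs. At least 3 UMIs of Pdgfra, Dpt, Lum, Pi16 and Ptprc were found in 70.8% and 76.0% of them, against 30.4% of the 250 cells and 25% of the Tom- mesothelial cells. A further 8 Tom+ and 15 Tom- barcodes had 8% or more mitochondrial UMIs, and 1 of the 8 had 5 or more tdTomato UMIs. With at most 1000 genes there were 3 Tom+ and 7 Tom- barcodes, with median depths of 696 and 1349 UMIs.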
